A study of Mus musculus with 26 samples.

Results

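The hedgehog receptors Ptch1 and Smo, the ligand-binding inhibitor Hhip and the transcription factors Gli1, Gli2 and Gli3 were followed as a group of 6 genes among the 27501 genes of a count table from mouse brain. All 6 were found in the table by their Ensembl identifiers. They were picked for a measured difference: in an earlier analysis of these libraries Gli1 was among the genes with the largest gap between sorted astrocyte and sorted neuron nuclei. Their levels in sorted astrocyte and sorted neuron nuclei, and every difference between groups that uses either, are therefore given as a description with no test.

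The 26 libraries formed 7 groups, made from the whole brain of mice 6 to 12 weeks old. The mice came from 3 transgenic lines, B6.FVB-Tg(Snap25-EGfp/Rpl10a), B6.FVB-Tg(Aldh1L1-EGfp/Rpl10a) and B6.FVB-Tg(Cnp-EGfp/Rpl10a), so that all groups carried GFP, a green fluorescent protein, joined to a ribosomal protein and driven by a promoter of neurons, astrocytes or oligodendrocytes. Nuclei of each line were sequenced after sorting (sorted neuron, astrocyte or oligodendrocyte nuclei) and before it (presort nuclei, a mixture of brain cell types). Each of these 6 groups had 4 libraries, of which 2 came from males and 2 from females. The last group held whole-brain cytoplasm, with 1 library from a male of the Aldh1L1 line and 1 from a female of the Cnp line. The labels name no treatment. The replicates of a group are separate mice, while presort nuclei were taken from each mouse, per the series' design text, so a sorted and a presort library can share a mouse; the labels do not say which. A sorted population is defined by where its promoter is active, and any other cell with that activity would be included.

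Sorted libraries held 134357 to 3239445 counts, presort libraries 147826 to 3274488, and the cytoplasmic libraries 4461568 and 3885312. Levels are given as CPM, the count of a gene scaled to the total of its library. A floor of 3 counts was worth 0.672 to 22.3 CPM, so a level of a few CPM in most presort libraries rests on 1 or 2 counts. Sorted astrocyte replicate 30 was the shallowest library. Sorted oligodendrocyte replicate 36 stood apart, with 7674 genes detected against 16223 to 16575 in the other 3 of its group and with 0 GFP counts. Differences between groups that rest on it are given with and without it. The summed level of 10 astrocyte markers was 22857 to 26741 CPM in sorted astrocyte nuclei, 1042 to 1539 in sorted neuron nuclei and 452 to 1775 in sorted oligodendrocyte nuclei, so the labels of the sorted groups held for these markers.

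Hedgehog proteins are secreted signals that bind Patched (Ptch1) on the receiving cell. Unbound Patched holds Smoothened (Smo) inactive; once the ligand binds, Smoothened gathers in the primary cilium and the Gli factors turn from repressors of transcription into activators. Gli3 acts mainly as a repressor, Gli2 mainly as an activator, and Gli1 is an activator that is itself switched on by the pathway, as are Ptch1 and Hhip in many tissues. In the adult brain, Sonic hedgehog made by neurons is known to act on astrocytes, Bergmann glia of the cerebellum among them.

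The start regions of Gli2, Gli3 and Hhip are shown because Gli2 and Gli3 shared one pattern across the sorted nuclei and Hhip had another. Each is a window of 250 bases before and 50 after the annotated start (RefSeq, GRCm38.p6), printed 5′ to 3′ on the strand of the gene. Capitals mark the core CCACCC of the Gli binding motif or its reverse complement GGGTGG. Gli2 lies at chr1:119053570-119053869, Gli3 at chr13:15463473-15463772 and Hhip at chr8:80057959-80058258. Gli2 and Hhip are on the minus strand and Gli3 is on the plus strand.
Gli2: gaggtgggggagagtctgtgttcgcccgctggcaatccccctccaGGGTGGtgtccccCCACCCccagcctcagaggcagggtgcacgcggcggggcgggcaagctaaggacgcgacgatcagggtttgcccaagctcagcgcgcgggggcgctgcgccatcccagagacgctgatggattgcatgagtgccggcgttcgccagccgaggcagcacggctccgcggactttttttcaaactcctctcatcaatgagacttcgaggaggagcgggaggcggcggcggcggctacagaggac
Gli3: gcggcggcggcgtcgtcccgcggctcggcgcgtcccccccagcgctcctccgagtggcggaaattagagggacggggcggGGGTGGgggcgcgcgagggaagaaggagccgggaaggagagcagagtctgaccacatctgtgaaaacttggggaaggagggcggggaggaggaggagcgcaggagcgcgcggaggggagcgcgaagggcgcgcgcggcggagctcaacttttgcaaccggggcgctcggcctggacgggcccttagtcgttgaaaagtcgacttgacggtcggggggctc
Hhip: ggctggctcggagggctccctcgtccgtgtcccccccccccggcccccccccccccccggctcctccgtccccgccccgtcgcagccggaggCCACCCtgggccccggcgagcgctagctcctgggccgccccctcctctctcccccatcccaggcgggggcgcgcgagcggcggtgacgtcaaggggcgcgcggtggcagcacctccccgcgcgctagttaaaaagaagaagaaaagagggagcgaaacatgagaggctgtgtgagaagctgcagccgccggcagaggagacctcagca

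The Gli2 window held 2 cores, 205 and 192 bases before the start and on opposite strands. Gli3 held 1 core, 170 bases before the start, Hhip 1 at 158 bases and Smo 1 at 162 bases, while none was found in the Ptch1 window. The Ptch1 window, chr13:63565686-63565985, lies inside the gene, whose annotated span on the minus strand begins at 63573598. The region at that outermost start was not searched. Windows were matched for 5 of the 6 genes, and 4 of these 5 held the core, against 31.5% of all 32851 windows. The 9-letter motif GACCACCCA, searched on both strands and containing the core, was in 0 of the 5 and in 0.253% of all windows. The Gli2, Gli3 and Hhip windows held 28, 39 and 30 CG pairs and those of Ptch1 and Smo 47 and 17, against a median of 7 over all windows (quartiles 3 and 20). A letter match is a description of the sequence and not a binding site.

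The receptor Ptch1 (ENSMUSG00000021466, chr13:63508328-63573598, minus strand, GRCm38) was present in all 26 libraries. Its level in sorted astrocyte nuclei was 419, 267, 350 and 425 CPM in replicates 6, 8, 30 and 32. In sorted neuron nuclei it was 93.1, 48.0, 38.2 and 30.1 CPM (replicates 2, 4, 26 and 28), and in sorted oligodendrocyte nuclei 74.0, 87.2, 65.9 and 306 CPM (replicates 10, 12, 34 and 36). Every astrocyte library was above every neuron library, and above every oligodendrocyte library except replicate 36, which exceeded astrocyte replicate 8. The mean in astrocytes, 365 ± 73.7 CPM (SD, n = 4), was 6.98 times that in neurons, 52.3 ± 28.1, and 2.74 times that in oligodendrocytes, 133 ± 115. Without replicate 36 the oligodendrocyte mean was 75.7 ± 10.8 CPM (n = 3) and the ratio 4.82. In the order of the 7 groups, presort neuron-line nuclei (141 ± 54.8 CPM), presort oligodendrocyte-line nuclei (115 ± 53.2) and presort astrocyte-line nuclei (108 ± 23.4) lay between the sorted types and overlapped one another, and cytoplasm was lowest at 41.7 ± 13.1 CPM (n = 2), within the range of sorted neuron nuclei.

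Smo (ENSMUSG00000001761, chr6:29735503-29761365, plus strand), the transducer that Patched restrains, was at 65.2, 30.1, 22.3 and 75.6 CPM in sorted astrocyte nuclei, the third of these from 3 counts. It was at 1.13, 0.418, 4.57 and 0.763 CPM in sorted neuron nuclei and at 3.75, 7.63, 15.6 and 0 CPM in sorted oligodendrocyte nuclei, the 0 being replicate 36. All 4 astrocyte libraries stood above the other 8, though astrocyte replicate 30 and oligodendrocyte replicate 34 were close. The astrocyte mean of 48.3 ± 26.1 CPM (SD, n = 4) was 28.1 times the neuron mean and 7.15 times the oligodendrocyte mean. Presort oligodendrocyte-line (21.7 ± 3.94 CPM) and presort astrocyte-line nuclei (19.5 ± 4.29) followed in the order of levels and did not differ beyond their spread. Next came cytoplasm (9.56 ± 6.86, n = 2), presort neuron-line nuclei (9.07 ± 6.17) and sorted oligodendrocyte nuclei (6.76 ± 6.69), which also overlapped, and sorted neuron nuclei were last at 1.72 ± 1.92.

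Hhip (ENSMUSG00000064325, chr8:79965851-80058006, minus strand), which binds hedgehog ligands at the cell surface and so limits signalling, had another order: it was highest in oligodendrocytes. Its level was 60.01, 53.9, 67.4 and 22.5 CPM in sorted oligodendrocyte nuclei, 4.69, 4.29, 7.44 and 9.57 CPM in sorted astrocyte nuclei, and 0.754, 2.09, 1.25 and 2.29 CPM in sorted neuron nuclei. The 3 types did not overlap, and the library that stands apart, oligodendrocyte replicate 36, was the lowest of its group. The oligodendrocyte mean, 50.9 ± 19.8 CPM (SD, n = 4), was 7.84 times the astrocyte mean of 6.50 ± 2.48 and 31.97 times the neuron mean of 1.59 ± 0.720. Presort means were 9.58 ± 5.95 CPM in the neuron line, 8.05 ± 5.31 in the oligodendrocyte line and 6.34 ± 5.72 in the astrocyte line, which overlapped one another and the sorted astrocyte level, and cytoplasm was at 2.15 ± 0.129 (n = 2). Markers of oligodendrocytes (8 genes) summed to 27923 to 37562 CPM in sorted oligodendrocyte nuclei and to 1146 to 2181 CPM in the other sorted libraries.

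Gli1 (ENSMUSG00000025407, chr10:127329882-127341974, minus strand), the activator that reports pathway activity, was uncounted in 5 of the 12 sorted libraries. Sorted astrocyte nuclei held 41.4, 37.1, 59.5 and 61.7 CPM. All 4 sorted neuron libraries had 0 counts, and sorted oligodendrocyte nuclei had 0.682, 0.477, 0.373 and 0 CPM, which is 4 counts in all. The astrocyte mean of 49.9 ± 12.5 CPM (SD, n = 4) was at least 168-fold higher than the neuron level, set at a floor of 3 counts over the group (0.298 CPM), and was 130 times the oligodendrocyte mean. The presort means were 10.7 ± 11.2 CPM in the astrocyte line, 10.7 ± 10.4 in the oligodendrocyte line and 7.37 ± 5.38 in the neuron line, indistinguishable within their spread, and cytoplasm was at 1.89 ± 0.493 (n = 2). In the annotation Gli1 shares exon bases with Arhgap9 on the other strand, which had 8 counts summed over all 26 libraries, and with the antisense gene Gm47200. The library kit keeps no strand, so reads of the overlap cannot be assigned.

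Gli2 (ENSMUSG00000048402, chr1:118834132-119053619, minus strand) was at 191, 86.3, 127 and 112 CPM in sorted astrocyte nuclei. It was at 0.754, 0, 0.415 and 0 CPM in sorted neuron nuclei, or 3 counts in all, and at 2.05, 6.20, 3.35 and 1.87 CPM in sorted oligodendrocyte nuclei. The 3 types did not overlap. From the pooled counts the astrocyte level was 425 times the neuron level, with an exact 95% interval of 145 to 2065 that covers counting error only. The astrocyte mean of 129 ± 44.6 CPM (SD, n = 4) was 38.3 times the oligodendrocyte mean of 3.37 ± 1.999. Presort nuclei held 20.1 ± 15.9 CPM in the neuron line, 18.1 ± 12.1 in the astrocyte line and 9.01 ± 4.60 in the oligodendrocyte line, and the cytoplasmic libraries held 0.224 and 16.2 CPM; these 4 groups overlapped.

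Gli3 (ENSMUSG00000021318, chr13:15463235-15730026, plus strand), the main repressor, was at 192, 139, 201 and 146 CPM in sorted astrocyte nuclei. It was at 2.26, 10.9, 5.396 and 11.4 CPM in sorted neuron nuclei and at 1.36, 6.20, 4.84 and 0.624 CPM in sorted oligodendrocyte nuclei, which overlapped the neuron range. The astrocyte mean of 169.6 ± 31.5 CPM (SD, n = 4) was 22.6 times the neuron mean and 52.1 times the oligodendrocyte mean. Unlike Gli1, Gli3 was counted in all 4 neuron libraries, with 75 counts in all. In presort nuclei it was at 32.7 ± 22.3 CPM in the oligodendrocyte line, 16.5 ± 2.46 in the neuron line and 14.1 ± 10.5 in the astrocyte line, and the cytoplasmic libraries held 2.91 and 13.4 CPM, with overlap between all neighbours. Gm6556 shares exon bases with Gli3 on the other strand, and Gm27820 with Hhip.

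**Figure D1:**
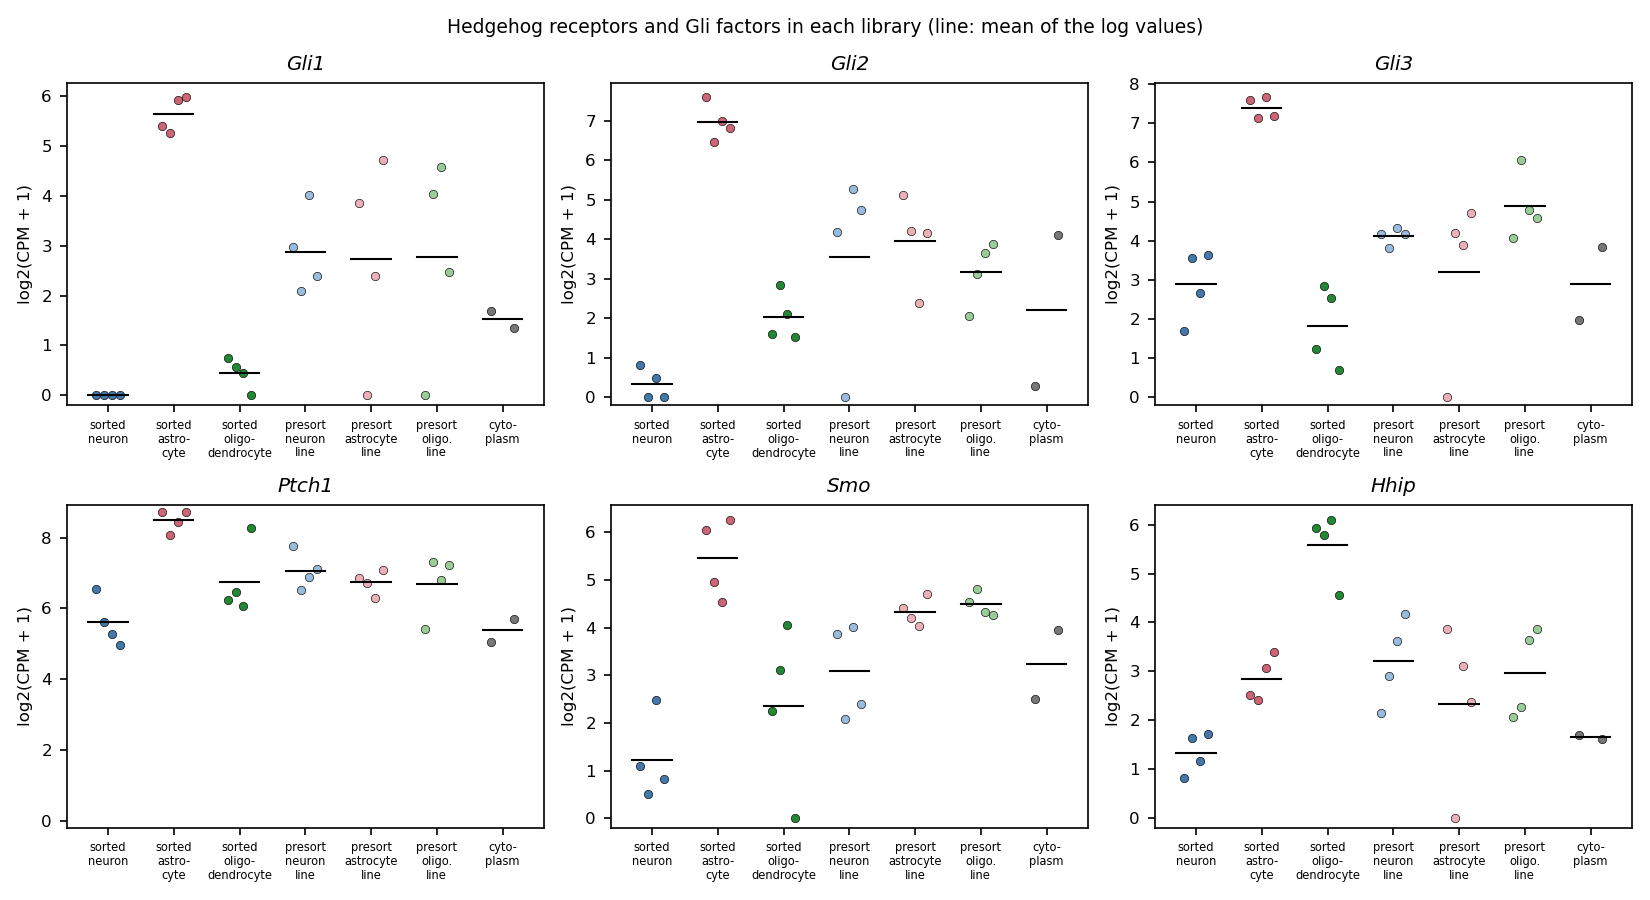
Level of each of the 6 genes in every library, as log2(CPM + 1) on the vertical axis, by group on the horizontal axis; each point is 1 library and each line the mean of the log values (4 libraries a group, 2 for cytoplasm). The sorted astrocyte points of Gli1, Gli2, Gli3 and Smo lie above all other sorted points, those of Ptch1 above all but 1 oligodendrocyte library at 306 CPM, and for Hhip the sorted oligodendrocyte points are the highest.

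Gli1, Gli2, Gli3 and Smo were thus higher in all 4 astrocyte libraries than in the other 8 sorted ones, an order that 8.86% of the 13029 genes tested had. Hhip was higher in all 4 oligodendrocyte libraries than in the other 8, as 4.22% of genes were. The share of all genes without overlap between any pair of sorted types, or among all of them, was not counted. Fitted with edgeR's quasi-likelihood model, the log2 difference of astrocytes over neurons was 8.66 ± 0.83 (SE) for Gli2, 5.04 ± 0.96 for Smo, 4.67 ± 0.65 for Gli3, 2.96 ± 0.64 for Ptch1 and 2.16 ± 0.59 for Hhip; Gli1 has no fitted difference to report because its neuron libraries were at 0. Against oligodendrocytes the log2 difference was 6.56 ± 0.75 for Gli1, 5.49 ± 0.69 for Gli3, 5.04 ± 0.67 for Gli2, 2.78 ± 0.84 for Smo, 1.005 ± 0.60 for Ptch1 and -3.13 ± 0.57 for Hhip. Without oligodendrocyte replicate 36 the Ptch1 difference was 2.17. The ratio of the astrocyte to the oligodendrocyte mean CPM was then 97.8 for Gli1, 33.3 for Gli2, 41.0 for Gli3, 5.36 for Smo and 0.108 for Hhip.

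Among the sorted types, markers of some other cells were also highest in astrocyte nuclei. The summed level of 7 ependymal and choroid plexus markers, with Ccdc153 at 0, was 604 to 7086 CPM in sorted astrocyte nuclei and 44.9 to 169 in the other sorted libraries. The sum of 7 mural and fibroblast markers was 335 to 482 CPM against 4.37 to 216, and that of the 2 Bergmann glia markers Gdf10 and Hopx was 243 to 373 CPM against 0 to 27.6. In presort astrocyte-line nuclei these lists summed to 386 to 1002 CPM (ependymal and choroid plexus), 390 to 690 (mural and fibroblast) and 24.7 to 54.5 (Bergmann glia). The mural and fibroblast sum was thus not higher after the sort. Astrocyte replicate 6 had the lowest ependymal and choroid plexus sum, 604 CPM, and its Gli2, Gli3, Ptch1 and Smo levels (191, 192, 419 and 65.2 CPM) were the highest or next to highest of the 4, while its Gli1 level (41.4 CPM) was the third. The part of ependymal, choroid plexus and mural cells and of Bergmann glia in the result was not tested. In sorted astrocyte nuclei the other lists summed to 354 to 718 CPM for neurons, 31.5 to 104 for oligodendrocyte precursors, 49.0 to 81.9 for microglia, 29.6 to 98.5 for endothelial cells and 0 to 10.5 for stem and cycling cells. In bulk libraries fewer cells of a type and less RNA per cell cannot be told apart.

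Sorted oligodendrocyte and sorted neuron nuclei were set side by side in the same fit, again as a description. The log2 difference of sorted oligodendrocyte over sorted neuron nuclei was 5.30 ± 0.61 (SE) for Hhip, whose 4 oligodendrocyte libraries lay above every neuron library. It was 1.95 ± 0.61 for Ptch1 and rested on replicate 36, without which it was 0.79; the Ptch1 ranges of the other 3 oligodendrocyte libraries and of the neurons overlapped. Smo gave 2.25 ± 0.90 and Gli3 -0.82 ± 0.62, both with overlapping ranges. Gli2 and Gli1 were near the floor in both types, and Smo had 17 counts over the neuron libraries. Gli1, Gli2 and Smo were in the fit only through their astrocyte levels. Gli2 had 31 counts over the oligodendrocyte libraries against 3 over the neuron libraries, a pooled ratio of 11.2 with an exact 95% counting interval of 3.49 to 57.1, and Gli1 had 4 counts against 0.

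**Figure D2:**
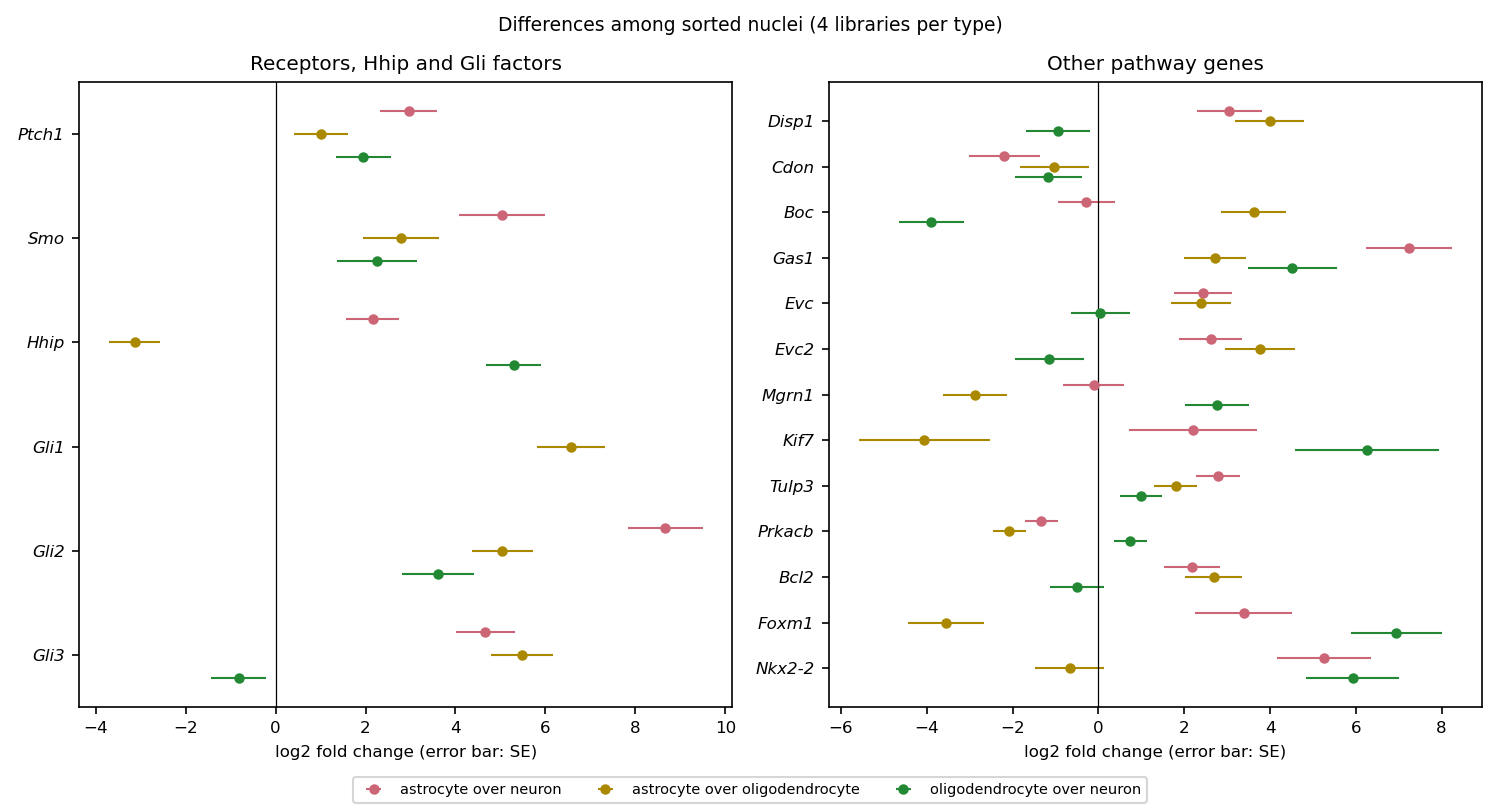
Fitted log2 differences among the 3 sorted types (horizontal axis; points are estimates, bars 1 SE, 4 libraries a type) for the 6 genes on the left, without the 2 Gli1 differences against neurons, where Gli1 had 0 counts, and for the coreceptors and other pathway genes that passed a test on the right. Astrocyte differences are to the right of 0 for the 3 Gli factors, Ptch1 and Smo, while Hhip is at -3.13 for astrocytes over oligodendrocytes and at 5.30 for oligodendrocytes over neurons.

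A list of 45 other pathway genes, grouped by role, was examined in the same fits, and here all comparisons were tested. The ligands were almost uncounted. Shh, Sonic hedgehog, had 13 counts over the 4 sorted neuron libraries (1.33 ± 1.36 CPM, SD, n = 4, with 8 of the counts in replicate 4), 2 counts in sorted astrocyte nuclei and 0 in sorted oligodendrocyte nuclei. Shh had 7 counts over the 12 presort libraries and 14 over the 2 cytoplasmic ones. Ihh, Indian hedgehog, had 1 count in sorted astrocyte nuclei, 1 in sorted oligodendrocyte nuclei and 0 in sorted neuron nuclei, and Dhh, Desert hedgehog, had 0 counts in all 12 sorted libraries. None of the 3 ligands passed the filter on low counts, so no difference in them was detectable at this depth. Disp1, which releases the lipid-modified ligand from the cell that makes it, was at 82.3, 60.1, 89.3 and 83.3 CPM in sorted astrocyte nuclei, 2.67 to 15.9 in neurons and 0 to 11.9 in oligodendrocytes. It was higher in astrocytes than in neurons (3.05 ± 0.76 on the log2 scale, adjusted p = 0.00823) and than in oligodendrocytes (3.99 ± 0.80, adjusted p = 0.00183), and was 1 of 4 tested genes of ligand release to pass.

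The coreceptors, which help ligand to bind Patched, divided by cell type. Gas1 was at 13.6, 8.20, 29.8 and 37.0 CPM in sorted astrocyte nuclei, while a single count was found over the 4 neuron libraries and 0.624 to 6.33 CPM in oligodendrocytes. It was higher in astrocytes than in neurons (adjusted p = 9.34e-05; pooled ratio 215, exact 95% counting interval 38.2 to 8558) and than in oligodendrocytes (2.72 ± 0.72, adjusted p = 0.0136; 0.0952 without astrocyte replicate 32). Oligodendrocyte libraries held 29 counts of Gas1 in all (pooled ratio to neurons 31.4, interval 5.20 to 1281). Gas1 was in the fit of the sorted types only through its astrocyte level, so its adjusted p-values are not read as support. Boc was at 158, 142, 81.9 and 127 CPM in astrocytes, 316, 116, 142 and 123 CPM in neurons and 6.48, 8.10, 24.2 and 0 CPM in oligodendrocytes. It was lower in oligodendrocytes than in neurons (-3.89 ± 0.76, adjusted p = 0.00151) and higher in astrocytes than in oligodendrocytes by 3.62 ± 0.75 (adjusted p = 0.00249), whereas astrocytes over neurons gave -0.28 ± 0.67 (adjusted p = 0.855). Cdon had the reverse order of Gas1: 264, 191, 193 and 238 CPM in neurons, 40.9, 27.7, 59.5 and 49.4 CPM in astrocytes and 81.2, 139, 107 and 0 CPM in oligodendrocytes. Neurons and astrocytes did not overlap, yet the difference of -2.19 ± 0.82 missed the threshold (adjusted p = 0.0755) in the fit with oligodendrocyte replicate 36, where Cdon had 0 counts, and passed without it (-2.22, adjusted p = 1.62e-05). Without that replicate, Cdon was also lower in astrocytes than in oligodendrocytes (-1.47, adjusted p = 0.00174).

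**Figure D3:**
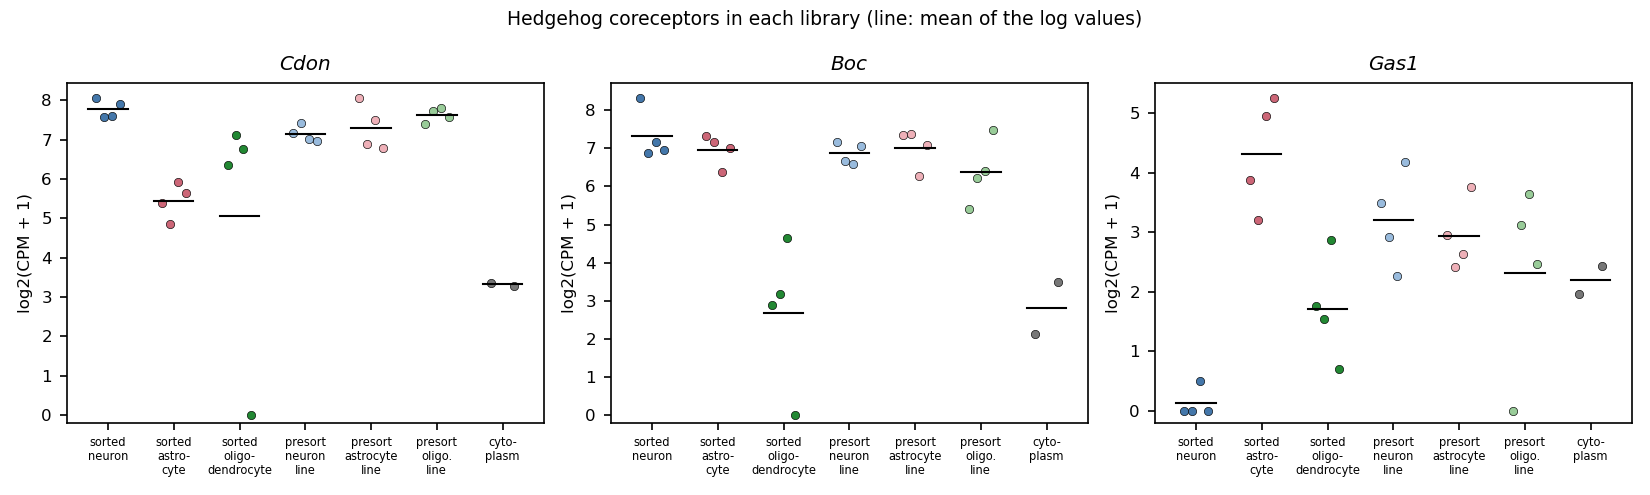
Level of the coreceptors Cdon, Boc and Gas1 in every library, as log2(CPM + 1) on the vertical axis, by group; each point is 1 library and each line the mean of the log values. Gas1 is highest in sorted astrocyte nuclei, Cdon in sorted neuron and presort nuclei, Boc is low in sorted oligodendrocyte nuclei, and oligodendrocyte replicate 36 is the point at 0 for Cdon and Boc.

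Among regulators of Smoothened, Evc and Evc2, which form a complex at the base of the cilium, were higher in astrocytes. Evc2 was at 7.44 to 24.4 CPM in astrocytes, 1.53 to 7.10 in neurons and 0 to 2.61 in oligodendrocytes, and passed against both (2.62 ± 0.74, adjusted p = 0.0177, and 3.77 ± 0.81, adjusted p = 0.0032). Evc was at 22.6, 26.5 and 18.8 CPM in 3 astrocyte libraries and at 0 in the shallow replicate 30, against 2.92 to 6.10 CPM in neurons, and it passed against neurons (2.44, adjusted p = 0.0175) and oligodendrocytes (2.39, adjusted p = 0.0236). The Evc call against oligodendrocytes was lost without astrocyte replicate 6, 8 or 32 or oligodendrocyte replicate 10 or 12. Evc and Evc2 were in the fit only through their astrocyte levels, so their adjusted p-values are not read as support. Mgrn1, a ubiquitin ligase that lowers Smoothened, was lower in astrocytes than in oligodendrocytes (-2.88, adjusted p = 0.0129), and higher in oligodendrocytes than in neurons by 2.77 (adjusted p = 0.0123). Oligodendrocyte replicate 36 held 636 CPM of Mgrn1 against 64.1 to 124 in the other 3, and without it the differences were -1.22 (adjusted p = 0.0237) and 1.10 (adjusted p = 0.027). Tulp3, which carries inhibitory receptors into the cilium, was at 67.9 to 144 CPM in astrocytes, 9.53 to 22.6 in neurons and 14.4 to 38.1 in oligodendrocytes. It was higher in astrocytes than in neurons (2.79, adjusted p = 0.000935) and than in oligodendrocytes (1.80, adjusted p = 0.0176; lost without astrocyte replicate 6 or oligodendrocyte replicate 10). Prkacb, a catalytic subunit of protein kinase A, which marks Gli proteins for cleavage to repressors, was the gene of the list called lower in astrocytes against both neurons (-1.33, adjusted p = 0.0216) and oligodendrocytes (-2.07, adjusted p = 0.00119). Kif7, a ciliary kinesin, passed in oligodendrocytes over neurons (6.26) on replicate 36 alone, which held 512 CPM against 2.24 to 2.86 in the other 3; without it the difference was 0.08 (adjusted p = 0.941). None of the 7 cilium genes passed among the sorted types.

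Reported Gli targets of other tissues did not share a pattern. Bcl2, which inhibits cell death, was higher in astrocytes, at 50.6 to 119 CPM against 12.9 to 30.9 in neurons (2.18, adjusted p = 0.0241) and 4.43 to 21.2 in oligodendrocytes (2.69, adjusted p = 0.00933; lost without oligodendrocyte replicate 10 or 12). Nkx2-2, a factor of the oligodendrocyte lineage, had 3 counts over the neuron libraries and 7.44 to 14.9 CPM in astrocytes and 0 to 27.2 CPM in oligodendrocytes. It was higher than in neurons in both glial types (adjusted p = 0.00228 and 0.000941), with pooled ratios of 41.4 (exact 95% counting interval 13.8 to 204) and 65.3 (21.98 to 319). Foxm1, a factor of dividing cells, had 2 counts over the neuron libraries, 0 to 3.84 CPM in astrocytes and 7.45 to 44.3 CPM in oligodendrocytes, and was higher in oligodendrocytes than in neurons (adjusted p = 0.000204; pooled ratio 95.2, interval 25.97 to 792) and than in astrocytes (log2 difference of astrocytes over oligodendrocytes -3.56, adjusted p = 0.00856). Astrocytes held 19 counts of Foxm1 against 2 in neurons (pooled ratio 11.6, interval 2.79 to 102). Foxm1 was in the fit only through its oligodendrocyte level, so its adjusted p-values are not read as support. Without oligodendrocyte replicate 36 the difference of astrocytes over oligodendrocytes was 3.76 for Bcl2, -2.63 for Foxm1 and -1.57 for Prkacb.

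Of the 45 genes 37 were tested among the sorted types. Against neurons, 9 were higher in astrocytes, where 11.4% of all 13029 genes were, and 1 was lower, where 8.02% were. That is 27% of the list called, beside 19.4% of all genes, with a median log2 difference of 0.05 beside -0.05. Against oligodendrocytes, 8 were higher in astrocytes (9.62% of all genes) and 3 were lower (7.49%), which is 29.7% of the list beside 17.1% of all genes, with a median of 0.25 beside 0.11. Between oligodendrocytes and neurons, 5 were higher (12.4% of all genes) and 1 was lower (10.7%), which is 16.2% of the list beside 23.1% of all genes, with a median of -0.35 beside -0.16. The 9 include Foxm1 and the 5 include Gas1, each from a pair of types near the floor, as given above. Gas1, Evc and Evc2, in the fit only through their astrocyte levels, are among the 9 and among the 8. Foxm1, in the fit only through its oligodendrocyte level, is also among the 3 and among the 5. The astrocyte over neuron calls of Disp1, Gas1, Tulp3 and Nkx2-2 held in all 12 fits that leave out a library. Those of Evc, Evc2, Bcl2, Foxm1 and Prkacb each failed in 4 or more of these fits, with adjusted p from 0.0508 to 0.156. Evc failed without neuron replicate 2, 4 or 26 or astrocyte replicate 6 or 8, and Evc2 without neuron replicate 2, 26 or 28 or astrocyte replicate 6 or 32. Prkacb failed without neuron replicate 26 or 28 or astrocyte replicate 6 or 32, and Bcl2 without neuron replicate 2, 26 or 28 or astrocyte replicate 6, 8 or 30. Foxm1 held only without neuron replicate 26 or oligodendrocyte replicate 34 or 36. Without oligodendrocyte replicate 36 the count was 12 higher and 4 lower. None of the list passed in any of the 3 comparisons among females alone.

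The genes whose levels ran most like each of the 6 over the 12 sorted libraries are given with Pearson's r of log2 CPM as a description, out of 11916 candidates; the libraries share their cell types, so high values are common. The values include oligodendrocyte replicate 36, where Ptch1 stood far from the rest of its group, and were not repeated without it. For Gli1 these were Aqp9, a water and glycerol channel, Oaf and Gpr37l1, a receptor of astrocytes (all r = 0.99). For Gli2 they were Ttyh1, Itpr2, a calcium release channel, and Cbs, a cystathionine synthase (all 0.98), and for Gli3 Frem1 (0.99), the glycine decarboxylase Gldc (0.98) and the transcription factor Rfx4 (0.97). For Ptch1 they were the glycogen phosphorylase Pygm (0.98), the transcription factor Zbtb20 (0.97) and Pigs (0.96), and for Smo Glb1l (0.99), Antxr1 and Celsr1 (both 0.97). For Hhip they were Lpar1, a receptor of lysophosphatidic acid (0.99), Erbin (0.98) and the oligodendrocyte aspartoacylase Aspa (0.98). Among the 6 genes themselves r was 0.96 for Gli1 with Gli2, 0.94 for Gli1 with Gli3 and 0.73 for Gli1 with Ptch1, and -0.08 for Gli1 with Hhip.

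Sorted nuclei were next set beside presort nuclei of the same line, which are a mixture and mostly shallow. In the astrocyte line Gli1 was at 13.5, 0, 4.28 and 25.2 CPM in presort nuclei (replicates 5, 7, 29 and 31), all below the sorted range of 37.1 to 61.7. Gli2 was at 4.28 to 33.8 CPM, Gli3 at 0 to 25.2, Ptch1 at 78.2 to 134 and Smo at 15.3 to 25.2 in presort astrocyte-line nuclei. The sorted libraries lay above these for Gli2, Gli3 and Ptch1, and for Smo the groups overlapped at sorted replicate 30 with its 3 counts. Of all 11026 genes tested in this line, 13.7% were called higher after the sort and 15.2% lower. The share of all genes without overlap between sorted and presort nuclei was not counted in any line. The log2 difference of sorted over presort was 3.78 ± 0.53 (SE) for Gli2, 3.72 ± 0.41 for Gli3, 2.92 ± 0.58 for Gli1, 2.04 ± 0.29 for Ptch1 and 1.78 ± 0.45 for Smo. The Gli2 difference was 2.76 without presort replicate 29, the deepest of that group. Hhip did not pass the filter in this line, with 6.50 ± 2.48 CPM sorted and 6.34 ± 5.72 presort.

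In the oligodendrocyte line the comparison uses neither sorted astrocyte nor sorted neuron libraries and was tested. Hhip was at 3.19 to 13.7 CPM in presort nuclei against 22.5 to 67.4 sorted, with no overlap, and was higher after the sort by 3.13 ± 0.68 (adjusted p = 0.0181), where 5.12% of all genes passed as higher and 3.24% as lower. Hhip had 8 counts over the 4 presort libraries and was in this fit only through its sorted level, so its adjusted p is not read as support. Hhip passed the filter in 5 of the fits that leave out a library. The call was lost in 4 of these, each without 1 of the presort libraries (replicates 9, 11, 33 and 35), with adjusted p from 0.0511 to 0.0843. Gli3 was at 15.9 to 65.4 CPM presort against 0.624 to 6.20 sorted, again without overlap, and its difference of -2.84 ± 0.81 missed the threshold in edgeR (adjusted p = 0.052) and passed with DESeq2 (adjusted p = 0.00184) and with its size factors in edgeR (0.039). Ptch1 (1.13 ± 0.77, adjusted p = 0.436) and Smo (-1.30 ± 0.89, adjusted p = 0.441) did not pass, and Ptch1 changed sign, to -0.23, without sorted replicate 36. In the neuron line, given as a description, 2 of the 6 genes passed the filter. Ptch1 was at 91.4 to 218 CPM presort and 30.1 to 93.1 sorted, ranges that overlapped through sorted replicate 2, with a log2 difference of -1.31 ± 0.39 (-1.84 without that replicate). Gli3 was at 13.1 to 18.9 CPM presort and 2.26 to 11.4 sorted (-1.02 ± 0.57). Gli1, at 0 in all 4 sorted neuron libraries, had 8 counts over the 4 presort libraries of that line.

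**Figure D4:**
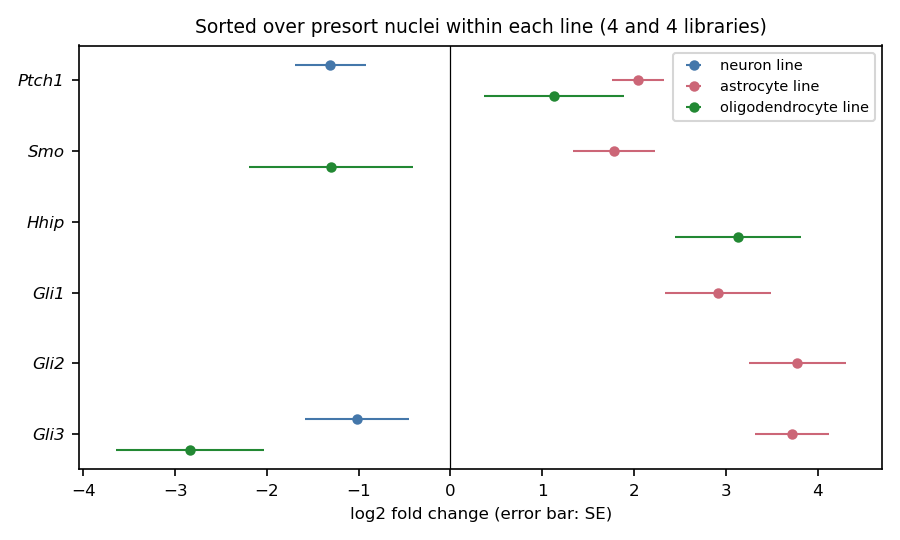
Fitted log2 difference of sorted over presort nuclei within each line (horizontal axis; points are estimates, bars 1 SE, 4 sorted and 4 presort libraries a line), drawn for the genes that passed the filter on low counts in that line. The astrocyte-line points lie between 1.78 and 3.78, the neuron-line points of Ptch1 and Gli3 are below 0, and in the oligodendrocyte line Hhip is at 3.13 and Gli3 at -2.84.

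Of the other pathway genes, 33 were tested in the astrocyte line, with 4 higher after the sort, where 13.7% of all genes were, and 4 lower, where 15.2% were. The share of the list called, 24.2%, was below that of all genes, 29%. Bcl2 (1.77), Tulp3 (1.69), Disp1 (1.43) and Gas1 (1.95) were higher, with adjusted p from 0.000845 to 0.0206. Gas1 had 22 counts over the 4 presort libraries and was in this fit only through its sorted level, so its adjusted p is not read as support. Gas1 passed the filter in 4 of the 8 fits that leave out a library, with adjusted p up to 0.0445. Cdon was lower (-1.74 ± 0.34, adjusted p = 0.000406), at 27.7 to 59.5 CPM sorted against 109 to 264 presort, and Scube1, which helps ligand leave the cell, was lower too (-1.64, adjusted p = 0.00197). Prkacb (-0.94, adjusted p = 0.01) and Ift88, a protein of ciliary transport (-1.42, adjusted p = 0.0321), were also lower; the call of Prkacb was lost without presort replicate 31 and that of Ift88 without presort replicate 5, 7 or 31 and in DESeq2. In the neuron line 0 of 29 tested genes passed in edgeR, where 6.37% of all genes did in either direction, with 5 under an unadjusted p of 0.05 and 2 called by DESeq2. In the oligodendrocyte line 0 of 28 passed, with 4 under an unadjusted p of 0.05 and 2 called by DESeq2. Boc was nearest there, at 41.4 to 178 CPM presort against 0 to 24.2 sorted (-2.91 ± 0.93, adjusted p = 0.0778; -2.51 and 0.00262 without sorted replicate 36).

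Between the 12 presort libraries and the 2 cytoplasmic ones only Ptch1 of the 6 genes passed the filter. It was at 41.4 to 218 CPM (median 116) in nuclei and at 32.5 and 51.0 CPM in cytoplasm, and the difference of 0.97 ± 0.41 did not pass in edgeR (adjusted p = 0.0524, under 0.05 before adjustment) but did in DESeq2 (adjusted p = 0.0373) and without presort oligodendrocyte-line replicate 9 (0.0239), where 20.6% of all genes passed in edgeR as higher in nuclei and 29.8% as lower. The other 5 genes were at medians of 5.68 (Gli1), 15.2 (Gli2), 17.2 (Gli3), 17.8 (Smo) and 7.08 CPM (Hhip) in presort nuclei and at most at 16.2 CPM in cytoplasm. The 2 cytoplasmic libraries differed from each other for Gli2 (0.224 and 16.2 CPM), Gli3 (2.91 and 13.4) and Smo (4.71 and 14.4), and they come from different lines and sexes. Of 26 other pathway genes tested, 6 were higher in nuclei and 11 in cytoplasm, which is 65.4% of the list beside 50.5% of all genes, with a median log2 difference of nuclei over cytoplasm of -0.66 beside -0.10 over all genes. The coreceptors Cdon (169 ± 47.6 CPM in nuclei, SD, n = 12, and 9.19 and 8.75 in cytoplasm; 3.63 ± 0.43, adjusted p = 7.39e-07) and Boc (115 ± 42.9 CPM, and 3.36 and 10.3; 3.52 ± 0.54, adjusted p = 1.93e-05) were higher in nuclei, as were Scube3, Inpp5e, Ift172 and Dync2h1. Lower in nuclei were the kinase genes Prkaca, Prkacb, Gsk3b, Csnk1a1 and Grk2, the ubiquitin ligase genes Spop, Cul3, Btrc and Mgrn1, the Smoothened regulator Mosmo and the cyclin gene Ccnd1, with log2 differences from -2.88 (Cul3) to -0.79 (Btrc). The calls of Grk2, Mgrn1, Ift172 and Dync2h1 were lost without cytoplasm replicate 2, those of Mosmo, Csnk1a1 and Cul3 without replicate 1, and that of Btrc without either, and Mosmo then changed sign (0.18). With 1 cytoplasmic library left, the lone library is assumed to vary like the presort groups. Ift172 was also lost without presort neuron-line replicate 1 or 3, astrocyte-line replicate 29 or oligodendrocyte-line replicate 33, Dync2h1 without any of 6 presort astrocyte-line or oligodendrocyte-line libraries (replicates 5, 7, 9, 11, 29 and 33), and Btrc without presort neuron-line replicate 25 or 27.

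Females and males were compared over the 12 sorted libraries in a model that also held cell type, and 0 of the 6 genes passed, beside 0.0461% of all genes; none was under an unadjusted p of 0.05 either. The largest difference by size was that of Smo, 0.62 ± 0.70 higher in females (adjusted p = 0.879). Males carry replicate numbers 1 to 12 and females 25 to 36, and the sexes cannot be told apart from these blocks. In the pathway list 0 of 37 genes passed, with 2 under an unadjusted p of 0.05 and 0 called by DESeq2.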

How the data were processed

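RNA was extracted from nuclei or cytoplasm and amplified with a kit that keeps no strand, per the labels' protocols. The authors deposited unnormalized counts of each gene in each library. The submitters' processing notes name Trimmomatic, Bowtie2, STAR, bedtools and edgeR; the build and the regions counted are not given in the sources used. Totals used all rows of the count table, and no step before the filter on low counts removed an entry for GFP. Symbols and coordinates came from GENCODE M21 (GRCm38), which held 26495 of the 27501 identifiers. CPM is a count divided by the library's total and scaled. Counts were tested with edgeR 4.0.16 in R 4.3.3 (quasi-likelihood F test, two-sided, TMM scaling, filterByExpr with a minimum count of 10) in 1 fit of the 12 sorted libraries, in fits of sorted and presort nuclei within each line, of presort nuclei against cytoplasm, and of sex. P-values were adjusted by Benjamini-Hochberg over all genes tested (threshold 0.05), and SE was the log2 difference divided by the root of F. The script was tested on simulated data. Alternatives were DESeq2 1.42.0, its size factors in edgeR, no filter, 1 sex alone and leaving out each library. Between any 2 replicates chi-square divided by its degrees of freedom was at least 1.97, so none were copies. Sorted and presort libraries that may come from the same mouse were fitted as independent. The 6 genes are given without p-values wherever sorted astrocyte or sorted neuron libraries are one side of the comparison. The genes named were the 6, the ligands, the coreceptors and every pathway gene that passed (1 is counted in the list but not reported here), and the 6 genes and all lists were chosen with earlier results of these data known.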

Additional observations from a re-analysis of the deposited data

Results flagged for a closer look

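Ptch1 in sorted oligodendrocyte replicate 36 stood far from the other 3 libraries of its group, at 305.8 CPM against 65.9 to 87.2. Of 36 combinations of gene and group examined for such a sample, 1 was found, and chance alone gives about 1 in 20. Hhip moved in opposite directions with the sort in 2 lines: the log2 ratio of sorted over presort mean CPM was 2.66 in the oligodendrocyte line and -2.59 in the neuron line, a gap of 5.25, with every sorted library above the presort ones in the first and every sorted library below them in the second. The difference between the lines was not tested, and the presort levels rest on few counts, 10 in all in the neuron line. In presort neuron-line libraries 1 count was worth at least 3.26 CPM, above the highest sorted neuron level of Hhip, 2.29 CPM. Any of these presort libraries with a count therefore had to lie above the sorted ones, so that order was set by depth.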

How the results depend on the processing

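The direction of every member's difference among the 3 sorted types was the same under all alternatives run. These were other scaling, no filter, DESeq2, each sex alone and each library left out. That of Hhip in the oligodendrocyte line was the same wherever it was fitted. No sex was fitted alone there, and Hhip passed the filter in 5 of the fits without 1 library. Some calls were lost beyond those given in the results. With males only, Gas1 (astrocytes against oligodendrocytes) and Mgrn1 (oligodendrocytes against neurons) were lost. Foxm1 (astrocytes against neurons) was lost with the other size factors. Ift88 (astrocyte line), Ift172 and Dync2h1 (nuclei against cytoplasm) were lost with no filter. Leaving out 1 library at a time, the genes called ranged from 1889 to 5096 for astrocytes against neurons, 1705 to 3568 for astrocytes against oligodendrocytes, 2324 to 4807 for oligodendrocytes against neurons, 342 to 1051 in the neuron line, 1836 to 3670 in the astrocyte line, 267 to 2069 in the oligodendrocyte line and 5 to 49 for sex. The highest counts of the 3 sorted comparisons, of the oligodendrocyte line and of sex were those without sorted oligodendrocyte replicate 36. The pathway genes called ranged from 5 to 16, 6 to 10 (oligodendrocytes against neurons), 0 to 3 (neuron line), 6 to 14 (astrocyte line) and 0 to 3 (oligodendrocyte line). With females only, 46, 67 and 123 genes were called in the 3 sorted comparisons, and 0 pathway genes in each; with males only, 10 pathway genes were called for oligodendrocytes against neurons, and Kif7 changed sign (-0.33). With no filter, 1151 genes were called in the neuron line, 1216 in the oligodendrocyte line, 6815 for nuclei against cytoplasm and 30 for sex, and 3, 3 and 14 pathway genes in the neuron, oligodendrocyte and astrocyte lines. DESeq2 called 1520 genes in the oligodendrocyte line (582 higher and 938 lower, against 487 and 308) and 54 for sex (46 higher in females, 8 lower), and 2 pathway genes in each of the neuron and oligodendrocyte lines. In that line the split was 440 and 416 with the other size factors, and for oligodendrocytes against neurons DESeq2 gave 1731 higher and 2288 lower, against 1610 and 1395. With no filter the neuron line gave 383 higher and 768 lower, against 140 and 562.

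Changes of sign were limited to differences that had not passed, apart from Mosmo and Kif7. Leaving out 1 library, Boc ranged from -0.49 to 0.20 for astrocytes against neurons and from -0.0358 to 0.53 in the astrocyte line, Ptch1 from -0.23 to 1.39 in the oligodendrocyte line, and Mosmo from -2.64 to 0.18 for nuclei against cytoplasm. For sex the ranges were -0.0773 to 0.47 (Gli1), -0.19 to 0.33 (Gli3) and -0.45 to 0.55 (Ptch1). The cause was not tested. No paired analysis was run, because sorted and presort libraries share no replicate numbers and no label says which come from the same mouse. Adjacent numbers, such as presort replicate 1 and sorted replicate 2 of the neuron line, were not taken as pairs. Sorted and presort libraries were fitted as independent, although some may share a mouse. Members that did not pass the filter have no fitted value in the comparisons named. In shallow presort libraries differences of a few CPM were not detectable.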
